A study of Mus musculus with 4 samples.

Results

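The small leucine-rich proteoglycans are secreted matrix proteins. Their signal was examined here in mixed cultures turned towards fat cells, from Lgr4 mutant and wild-type mice. The family was taken as 10 named genes (Aspn, Dcn, Bgn, Fmod, Lum, Prelp, Omd, Kera, Ogn and Podn) and all 21 probe sets whose annotation names one of these genes alone, out of 34945 single-gene probe sets for 18193 genes. The 10 genes were picked by family membership, with earlier results of these data known. The tested cultures came from mice homozygous for a mutant allele of Lgr4 (2 arrays) and were set against cultures from wild-type mice (2 arrays). Lgr4 encodes a receptor for R-spondins, secreted proteins that strengthen Wnt signalling. All donors were males aged 4 months. Stromal vascular cells, the mixed cell fraction left when fat cells are removed, were taken from epididymal fat in both genotypes. They were grown with 10% serum and 10 ng/ml bFGF, and turned towards brown fat cells for 48 h by 5 µg/ml insulin, 0.5 mM of the phosphodiesterase inhibitor IBMX, 1 µM dexamethasone, 50 nM T3 (thyroid hormone) and 5 µM troglitazone, which activates PPAR-gamma. Insulin, T3 and troglitazone then stayed in the medium for 6 days. The labels give neither the type of Lgr4 mutation, nor the cells in which it acts, nor the number of mice behind each culture.

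These proteoglycans share a core of leucine-rich repeats, and most of them carry chains of chondroitin, dermatan or keratan sulfate. In connective tissue they bind collagen and set the width and spacing of its fibrils, and several bind growth factors such as TGF-beta. In fat they are made mainly by stromal cells and preadipocytes rather than by lipid-filled adipocytes. In culture RNA, fewer cells of a type and less RNA per cell cannot be told apart.

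Asporin had the largest difference of the family. Aspn was 4.10-fold lower in Lgr4 mutant cultures, Lum and one probe set of Fmod were lower by less, and Prelp was higher. At their brightest probe sets Dcn, Bgn, Ogn, Omd and Podn did not pass the test, though a dimmer Dcn probe set was higher. Kera lay below the signal filter. Of the 9 genes that passed the filter (mean log2 signal above 6.13), 4 passed an adjusted p of 0.05 in limma, 1 higher and 3 lower. Over all 13173 genes tested, 29.8% passed, 11.1% higher and 18.7% lower, so 4 of 9 is to be read against a high background. In 7 of the 9 genes the values of the 2 genotypes did not overlap (6 with the mutant below and 1 with it above), against 68.8% of all tested genes. The median difference of the 9 genes was -0.21 on the log2 scale, against -0.03 over all genes tested. Cell markers moved too: 14 of 14 tested adipocyte markers were higher, while 5 of 10 fibroblast and progenitor markers, 6 of 10 mural markers and 6 of 12 macrophage markers were lower, with 1 fibroblast and progenitor marker and 2 mural markers higher. The part of cell makeup in the proteoglycan differences was not tested. Leaving out mutant replicate 2 took the count of higher members to 0. Over all genes the count was 3924, but 6349 without wild-type replicate 2, 1851 without mutant replicate 1 and 2104 without mutant replicate 2, with the lone array then assumed to vary like the others.

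**Figure D1:**
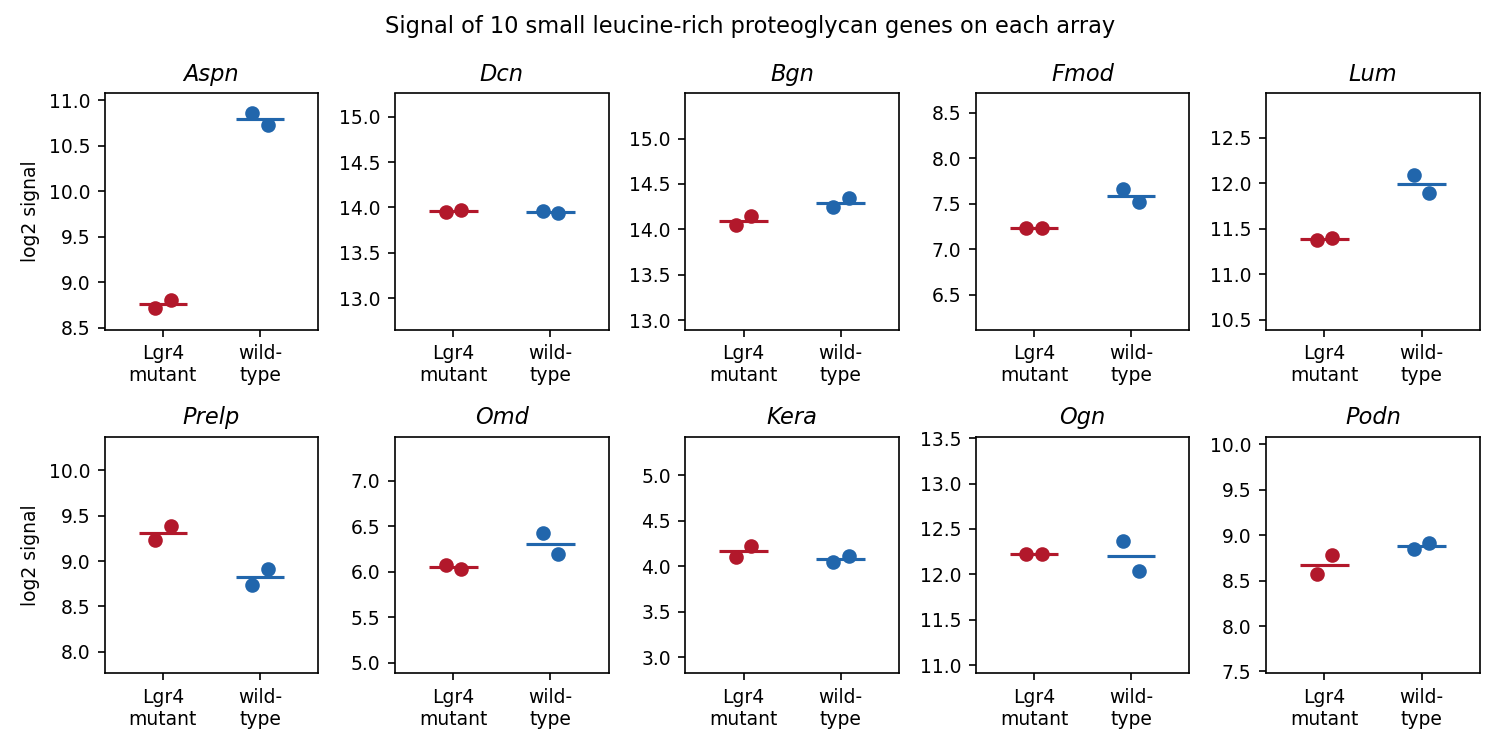
Log2 signal of the brightest probe set of each of the 10 genes on every array, with Lgr4 mutant cultures on the left and wild-type cultures on the right; points are arrays and lines are means of 2, and each panel spans the same range of log2 units. Aspn reads 8.71 and 8.80 in the mutant against 10.86 and 10.73 in wild-type, whereas the points of Dcn, Ogn and Kera overlap.

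**Figure D2:**
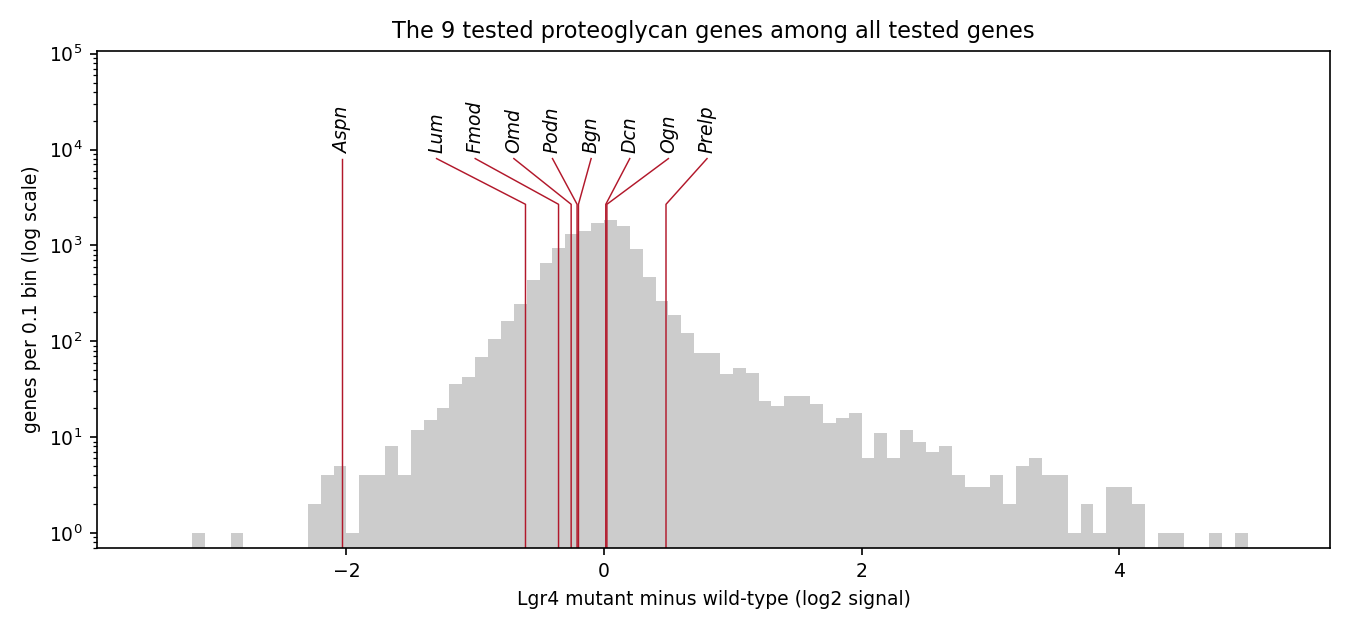
Histogram of the difference (Lgr4 mutant minus wild-type, log2 signal) over 13173 tested genes in bins of 0.1, with the number of genes on a log axis and a line for each of the 9 tested proteoglycan genes. Aspn (-2.03) lies in the far left tail, and the other 8 lie between -0.61 and 0.48, in the body of the distribution.

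The Lgr4 probe set read 6.18 and 6.09 in the mutant, against 8.65 and 8.20 in wild-type, and so followed the labels. A second Lgr4 probe set lay below the signal filter in both genotypes (5.37 and 5.31 in the mutant, against 5.28 and 5.23 in wild-type). Array medians lay between 6.65 and 6.69. Within a genotype the arrays correlated at 0.9977 in the mutant and 0.9954 in wild-type, and across genotypes at 0.982 to 0.987, over probe sets, which are not independent replicates. The adipocyte markers all lay above the signal filter in their mean. They were higher in the mutant by a median of 3.29, and their mean log2 signal was 12.6 on both mutant arrays, against 9.75 and 9.72 on the wild-type arrays. Of the brown fat markers that the label of the cultures calls for, Ucp1, the heat-producing uncoupling protein, read 8.17 and 7.49 in the mutant, against 4.99 and 5.86 in wild-type, below the filter there. Cidea was below the filter in both genotypes, at 5.00 and 4.87 in the mutant, against 5.03 and 5.10 in wild-type. Ppargc1a, a coactivator of mitochondrial genes, read 6.86 and 6.83 in the mutant, against 4.85 and 5.02 in wild-type, and was not tested because its mean over all arrays lay below the filter; in the fit of all genes its difference was 1.91 (adjusted p = 4.81e-06).

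Class I holds asporin, decorin and biglycan, whose core proteins are closely related. Asporin has a run of aspartates near its start, binds collagen, and in human cartilage and periodontal ligament cells it inhibits TGF-beta and BMP signalling. The Aspn probe set read 8.71 and 8.80 in Lgr4 mutant cultures, against 10.86 and 10.73 in wild-type cultures. Both mutant arrays lay far below both wild-type arrays. The difference was -2.03 (SE 0.099, 95% interval -2.26 to -1.81, adjusted p = 3.77e-06 in limma), 15.3 times the larger gap between replicates. It was the 12th lowest of 13173 differences, and 99.1% of tested genes differed by less in either direction. The second Aspn probe set read 8.53 and 8.76 in the mutant, against 10.66 and 10.76 in wild-type, a difference of -2.06 (SE 0.11). These probe sets target the same transcript, so they repeat the measurement of one RNA and are not further replicates.

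Decorin, the best-known collagen-binding member, is a main proteoglycan of loose connective tissue. Its brightest Dcn probe set read 13.95 and 13.97 in the mutant, against 13.96 and 13.94 in wild-type. The values overlapped, and the difference of 0.01 (SE 0.091, adjusted p = 0.923) had a 95% interval of -0.20 to 0.22. The sign of this difference turned after a second quantile normalization and after centring on the median. The signal lay near the top of the array range, which ended at 15.15. A second Dcn probe set with much lower signal read 7.12 and 7.16 in the mutant, against 6.73 and 6.81 in wild-type. It was higher by 0.37 (SE 0.094, adjusted p = 0.0292 over all probe sets above the filter, of which 24.3% passed), so the Dcn probe sets disagreed. Their mean differed by 0.19 and did not pass.

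Biglycan binds collagen and, once released from matrix, Toll-like receptors. Bgn read 14.05 and 14.15 in the mutant, against 14.25 and 14.34 in wild-type, again near the top of the range. The mutant arrays lay below the wild-type arrays without overlap, and the difference of -0.20 (SE 0.097, 95% interval -0.42 to 0.02, adjusted p = 0.157) did not pass. All 3 Bgn probe sets were lower in the mutant, by values from -0.27 to -0.20, and none passed. With a variance trend in the limma fit the Bgn difference did pass (adjusted p = 0.0344).

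**Figure D3:**
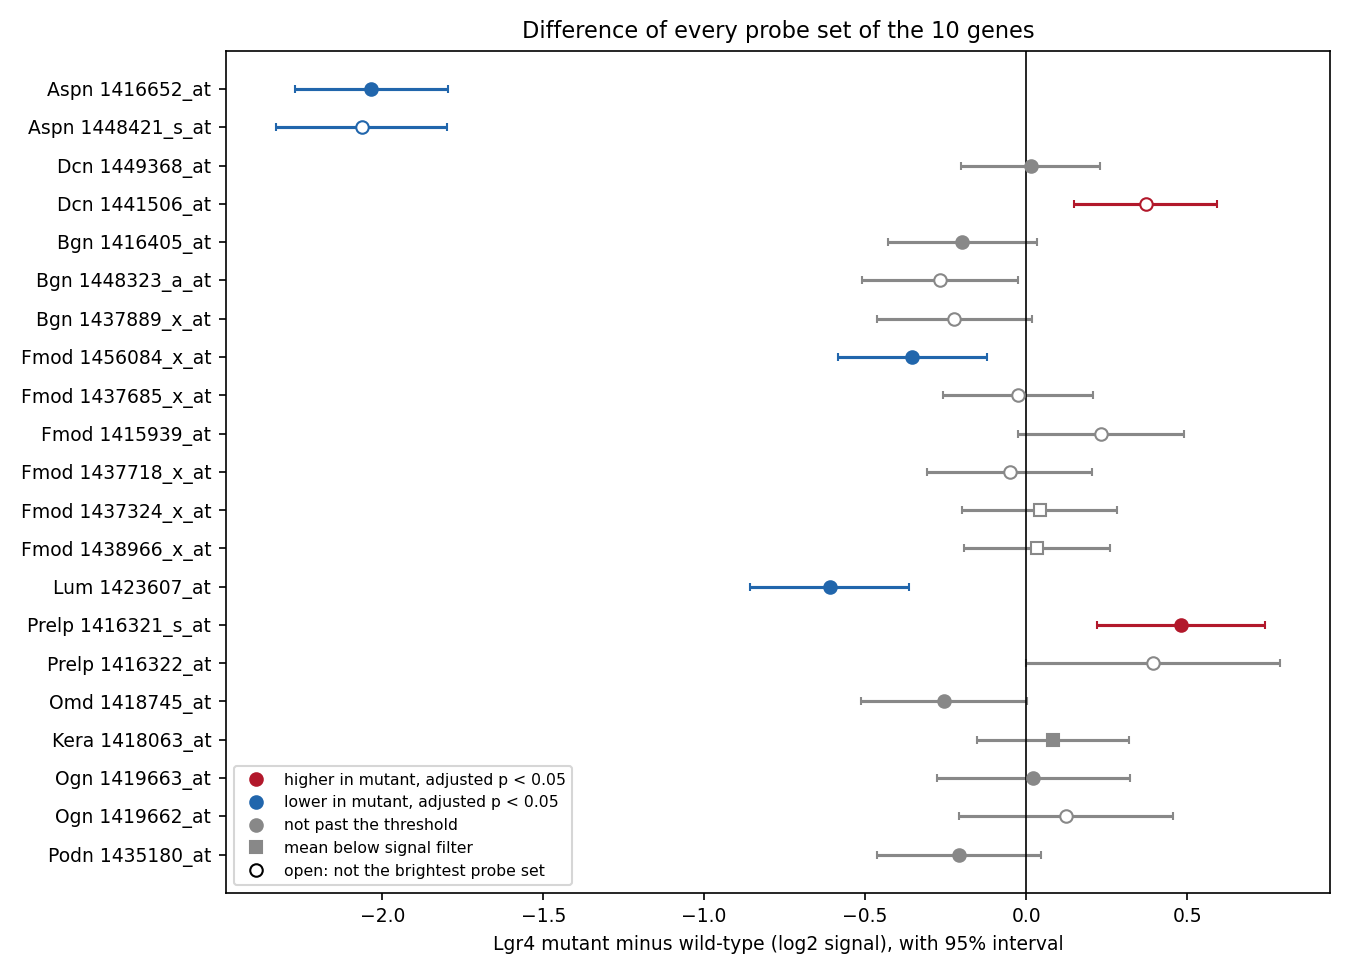
Difference of each of the 21 probe sets (Lgr4 mutant minus wild-type, log2 signal) with its 95% interval from the fit of all single-gene probe sets; filled symbols are the probe set used for the gene, open symbols are the others, squares lie below the signal filter, and blue and red mark lower and higher probe sets past an adjusted p of 0.05. Both Aspn probe sets sit near -2, while the 6 Fmod probe sets range from -0.35 to 0.23.

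Class II holds fibromodulin, lumican, Prelp, osteomodulin and keratocan, which as a group bear keratan sulfate or sulfated tyrosines more than dermatan sulfate. Lumican regulates collagen fibrils in skin and cornea. Its single probe set (Lum) read 11.37 and 11.39 in the mutant, against 12.09 and 11.90 in wild-type. Both mutant values lay below both wild-type values. Lum fell by 0.61 on the log2 scale (SE 0.10, 95% interval -0.85 to -0.37, adjusted p = 0.00332), or 1.53-fold, and it passed in each of the 13 alternative settings, with differences from -0.71 to -0.51.

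Prelp, which anchors basement membranes to the matrix beneath, was the one member that rose at its brightest probe set. It read 9.23 and 9.38 in the mutant, against 8.74 and 8.91 in wild-type. The mutant arrays lay above the wild-type arrays, and the difference was 0.48 (SE 0.11, 95% interval 0.23 to 0.73, adjusted p = 0.0118), or 1.40-fold. Its second probe set read 7.96 and 8.17 in the mutant, against 7.43 and 7.91 in wild-type, a difference of 0.39 that did not pass (adjusted p = 0.129 over all probe sets). The Prelp call ended without mutant replicate 2 (0.40, adjusted p = 0.129).

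Fibromodulin and lumican share a binding region on fibrillar collagen. The brightest Fmod probe set read 7.24 and 7.24 in the mutant, against 7.66 and 7.52 in wild-type, a fall of 1.28-fold (-0.35, SE 0.097, adjusted p = 0.0272). The other 5 probe sets ranged from -0.05 to 0.23 and none passed. The probe set used was the brightest only through the wild-type arrays. In the mutant another Fmod probe set was slightly brighter (mean 7.26 against 7.24), and that one differed by -0.03. The choice of probe set thus favoured a lower reading in the mutant. Of the 6, 5 are of the x type, a design in which some probes may match other transcripts. The remaining one read 7.16 and 7.22 in the mutant, against 6.85 and 7.07 in wild-type, a difference of 0.23 the other way that did not pass. With all 6 averaged the difference was -0.02 (adjusted p = 0.874), and the call also ended without either mutant array (adjusted p = 0.201 without replicate 1 and 0.195 without replicate 2).

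Osteomodulin (Omd), a keratan sulfate proteoglycan of bone, read 6.08 and 6.03 in the mutant, against 6.42 and 6.20 in wild-type, with the mutant mean below the signal filter of 6.13 and the mean over all arrays just above it. The values did not overlap, but the difference of -0.26 (SE 0.11, 95% interval -0.50 to -0.01) did not pass after adjustment (adjusted p = 0.107). It passed without wild-type replicate 2 (-0.37, adjusted p = 0.00841). Keratocan (Kera), known from the cornea, read 4.10 and 4.23 in the mutant, against 4.05 and 4.11 in wild-type, well below the filter. In the fit of all genes its difference was 0.08 (adjusted p = 0.596).

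Osteoglycin (Ogn, also called mimecan), of class III, read 12.22 on both mutant arrays, against 12.37 and 12.03 in wild-type. The mutant values lay between the wild-type values, and the difference was 0.02 (SE 0.12, 95% interval -0.26 to 0.30, adjusted p = 0.908). Its sign turned after centring on the median and without wild-type replicate 2, and a second Ogn probe set differed by 0.12 (SE 0.14). The gap between the wild-type replicates was 0.335, the widest of the 10 genes, and the interval left out a difference as large as that of Prelp. Podocan (Podn), of class V, read 8.57 and 8.78 in the mutant, against 8.85 and 8.92 in wild-type. It did not overlap, and its difference of -0.21 (SE 0.11, 95% interval -0.45 to 0.03, adjusted p = 0.169) did not pass.

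Several of these genes follow each other when the protein-coding genes measured here are ordered by their start in RefSeq (GRCm38.p6). Where genes end was not compared, so a gene named beside others may overlap them. On mouse chromosome 13 the order is Ecm2, Aspn, Omd and Ogn, where Ecm2 encodes a related leucine-rich matrix protein. Aspn fell by 2.03 on the log2 scale, while its neighbours Omd (-0.26) and Ogn (0.02) did not pass and Ecm2 lay below the filter at 4.04 and 4.17 in the mutant, against 4.01 and 4.12 in wild-type. The genes whose starts come next on either side, Cenpp (-0.01) and Nol8 (-0.45, adjusted p = 0.114 in limma), did not pass either. The interval of Aspn (-2.26 to -1.81) did not reach those of Omd (-0.50 to -0.01) or Ogn (-0.26 to 0.30). Omd lay near the signal filter, though, so the size of its difference is uncertain. On chromosome 10, Dcn, Lum, Kera and Epyc follow each other. Read at the brightest probe set of each, Lum alone of these passed, though the dimmer Dcn probe set was higher, as given above. The flanking gene Btg1 rose (0.41, adjusted p = 0.0136 in limma). On chromosome 1, Prelp rose beside Fmod, whose brightest probe set fell, and beside Optc (opticin), which was at 6.83 and 6.66 in the mutant, against 6.57 and 6.46 in wild-type, and did not pass (0.22, adjusted p = 0.138).

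**Figure D4:**
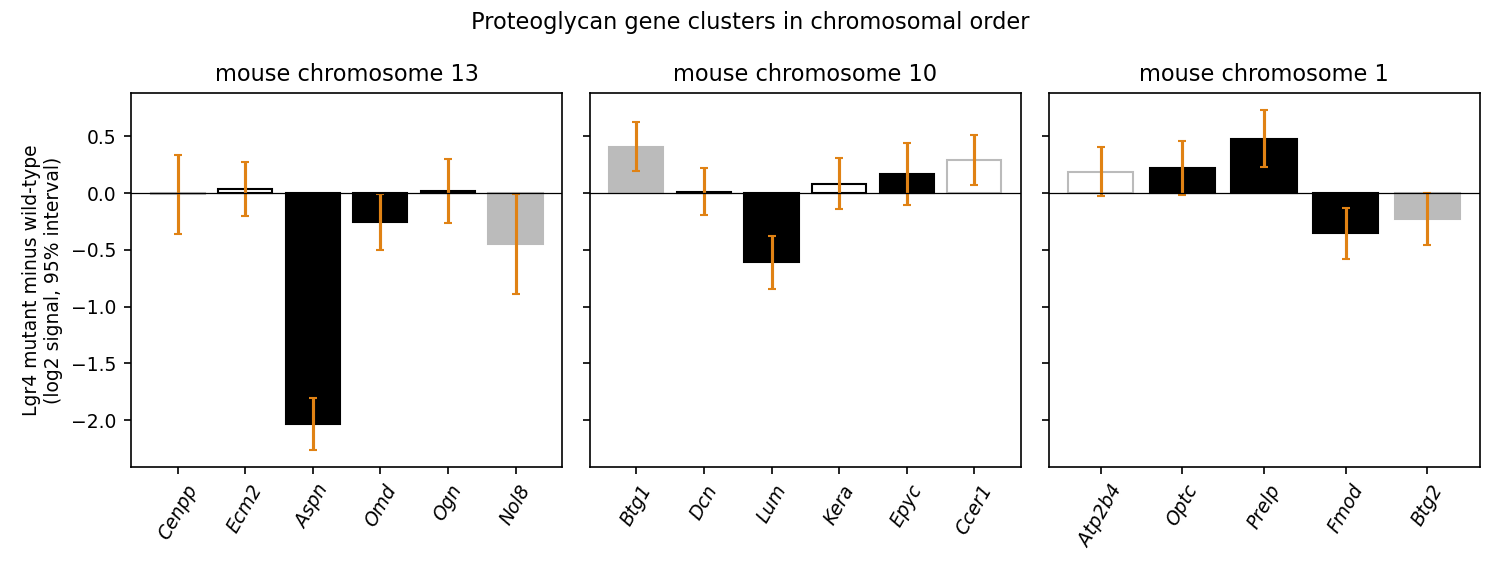
Difference (Lgr4 mutant minus wild-type, log2 signal) of the proteoglycan genes (black) in order of their starts on mouse chromosomes 13, 10 and 1. Grey marks the measured protein-coding gene whose start comes next on each side. Open bars lie below the signal filter, and error bars are 95% intervals from the limma fit. Aspn (-2.03) stands between Ecm2 (0.04, below the filter) and Omd (-0.26, near the filter). Prelp (0.48) stands beside the brightest Fmod probe set (-0.35).

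The bases before the start of these neighbours are shown because genes next to each other had unlike differences at their brightest probe sets. The windows were chosen after these values were seen. The Fmod probe sets disagreed and Omd lay near the filter, as given above. RefSeq promoter windows (GRCm38.p6) were found for 8 of the 10 members, all but Dcn and Lum, and the 250 bases before the start were searched on both strands. Capitals mark matches to the letters TATAAA of the TATA box, to the CCAAT box (spelled as named), to CTTTGA (the core bound by TCF/LEF factors, which act in Wnt signalling) and to AGGTCA (the half-site of nuclear receptors such as PPARs). The windows lie at chr13:49544193-49544442 (Aspn, + strand), chr13:49582212-49582461 (Omd, + strand), chr13:49607765-49608014 (Ogn, + strand), chr1:133921402-133921651 (Prelp, - strand) and chr1:134037004-134037253 (Fmod, + strand).
Aspn: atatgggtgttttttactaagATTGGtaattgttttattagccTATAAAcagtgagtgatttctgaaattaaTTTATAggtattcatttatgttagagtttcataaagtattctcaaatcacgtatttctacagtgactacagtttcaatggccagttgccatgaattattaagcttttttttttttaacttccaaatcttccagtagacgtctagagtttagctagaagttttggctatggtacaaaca
Omd: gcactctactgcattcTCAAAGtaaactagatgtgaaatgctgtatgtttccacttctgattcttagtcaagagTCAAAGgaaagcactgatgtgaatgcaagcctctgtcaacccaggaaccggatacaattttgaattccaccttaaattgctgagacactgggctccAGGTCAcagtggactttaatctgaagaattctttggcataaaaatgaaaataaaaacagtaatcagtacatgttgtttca
Ogn: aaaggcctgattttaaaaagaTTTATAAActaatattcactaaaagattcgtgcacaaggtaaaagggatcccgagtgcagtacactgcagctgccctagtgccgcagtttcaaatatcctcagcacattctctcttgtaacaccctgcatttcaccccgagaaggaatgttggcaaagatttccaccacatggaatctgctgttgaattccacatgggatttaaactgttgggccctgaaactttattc
Prelp: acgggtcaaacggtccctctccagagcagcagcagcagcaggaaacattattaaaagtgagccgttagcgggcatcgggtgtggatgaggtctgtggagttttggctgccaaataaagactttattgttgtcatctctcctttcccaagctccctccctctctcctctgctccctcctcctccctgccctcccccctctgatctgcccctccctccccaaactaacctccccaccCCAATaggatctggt
Fmod: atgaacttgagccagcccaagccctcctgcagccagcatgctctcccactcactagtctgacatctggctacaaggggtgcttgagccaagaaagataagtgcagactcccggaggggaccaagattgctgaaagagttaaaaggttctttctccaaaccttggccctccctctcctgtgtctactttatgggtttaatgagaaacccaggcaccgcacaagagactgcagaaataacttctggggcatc

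The Aspn window was A and T rich, with 30% G and C against a median of 52.4% over 32851 windows in the table. It held TATAAA at -207 to -202 on the gene's strand and at -178 to -173 on the opposite strand, and CCAAT at -229 to -225 on the opposite strand. CCAAT also matched in Prelp at -15 to -11 and at 3 places in Kera. Ogn also held TATAAA, on both strands in a shared run. TATAAA was present in 12.4% of all windows and CCAAT in 33.8%. CTTTGA, present in 13.8% of all windows, matched at 2 places in Omd and at 1 in Bgn. AGGTCA, present in 14.0%, matched once in Omd and in 1 of the Podn windows. Neither CTTTGA nor AGGTCA occurred in these letters in the windows of Aspn, Ogn, Prelp or Fmod. Each match is one of letters alone.

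Genes whose 4 array values lay nearest to those of Aspn, after each gene was centred on its own mean, were Cemip, Ahr, Rgs5, Pamr1 and Il6, out of all 13173 tested genes. Their Euclidean distances were 0.0931 for Cemip, 0.0972 for Ahr, 0.136 for Rgs5, 0.187 for Pamr1 and 0.188 for Il6, in log2 units. Cemip, which takes part in hyaluronan breakdown, read 9.28 and 9.50 in the mutant, against 11.48 and 11.37 in wild-type. Il6, the cytokine interleukin 6, and Rgs5 lay below the filter in the mutant (means of 5.99 for Il6 and 5.66 for Rgs5) and passed it only through the wild-type arrays. Over 4 arrays this measure mainly ranks genes by a fall of like size.

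Of 8 further family members and relatives, 6 had a single-gene probe set, 3 passed the filter and none was called. In limma none of Epyc (0.17), Optc (0.22) and Chadl (0.01) had an unadjusted p under 0.05 either. Chad, Nyx and Ecm2 lay below the filter, and Podnl1 and Tsku were not analysed here.

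The enzymes that build the sugar chains went both ways. Each list below is given by counts and by its median difference, to be read against 11.1% higher, 18.7% lower and a median of -0.03 over all tested genes; genes named beyond the 3 largest differences of a list were chosen after their values were seen. Of 7 tested genes that make the linkage region by which a chain joins its core protein, Pxylp1, a phosphatase that removes a phosphate from the linkage xylose, fell (-0.86, adjusted p = 0.00198) and 6 did not pass (median -0.17). Of 15 tested genes of chondroitin and dermatan sulfate chains, 5 fell, 2 rose and 8 did not pass (median -0.21). Csgalnact1, which starts chondroitin chains, read 8.56 and 8.80 in the mutant, against 9.95 and 9.80 in wild-type (-1.20, SE 0.11, adjusted p = 1.62e-04). Dse, an epimerase that turns chondroitin into dermatan sulfate, fell by 0.85 (adjusted p = 8.22e-04). The others that fell were Csgalnact2 (-0.62), Dsel (-0.50), a relative of Dse, and the chain polymerase Chsy1 (-0.49). The risers were the sulfotransferases Chst15 (0.64) and Chst13 (0.39). Of 8 tested genes of keratan sulfate chains, 4 fell, 1 rose and 3 did not pass (median -0.19). Those that fell were the galactosyltransferases B4galt4 (-0.74) and B4galt1 (-0.37), the chain-extending B3gnt2 (-0.72) and the fucosyltransferase Fut8 (-0.58). B4galt4 passed the filter only through the wild-type arrays, and its mutant mean of 6.00 lay below it. The sulfotransferase Chst1 rose (0.53), a call that ended without mutant replicate 1. The linkage list had 3 lower and 1 higher without wild-type replicate 2. Lower genes of the chondroitin and dermatan list numbered 10 without wild-type replicate 1, 2 without mutant replicate 1 and 3 without mutant replicate 2, and its higher genes numbered 1 without mutant replicate 1, with no filter and after centring on the median. Chst13 had an adjusted p of 0.0507 in limma with no filter.

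Collagens went both ways. Of 13 tested chains that form fibrils or bind them, 7 fell, 4 rose and 2 did not pass (median -0.32). The chains called lower numbered 6 with no filter and after a second quantile normalization, and 8 with the replicate block. Col3a1 (-0.28) passed narrowly in limma (adjusted p = 0.0487), and did not pass with no filter (adjusted p = 0.0671). Its signal, like that of Col1a2, lay near the top of the array range. Col12a1 and Col14a1, collagens that sit on fibril surfaces, fell by 1.36 and 1.23 on the log2 scale. Col12a1 read 11.13 and 11.26 in the mutant, against 12.56 and 12.54 in wild-type. The chains that rose were Col5a3 (2.67) and the 3 chains of collagen VI, Col6a1 (1.05), Col6a2 (1.13) and Col6a3 (0.83). Col5a3 read 11.01 and 10.85 in the mutant, against 8.23 and 8.29 in wild-type.

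TGF-beta and BMP ligands, receptors and mediators, which decorin, biglycan and asporin bind or modulate, fell in 7 of 16 tested genes and rose in 1, and 8 did not pass (median -0.25). Tgfb2 read 7.86 and 7.95 in the mutant, against 9.34 and 8.86 in wild-type (-1.20, SE 0.15, adjusted p = 7.81e-04). The receptor Tgfbr2 fell by 0.80, and the ligand Bmp4 rose (0.91). Of 13 tested receptors named for soluble or matrix-bound proteoglycans, 7 fell, 1 rose and 5 did not pass (median -0.40). The riser was Met, the receptor of hepatocyte growth factor, at 8.47 and 8.19 in the mutant, against 6.07 and 5.81 in wild-type. Its difference was 2.39 (SE 0.13, adjusted p = 7.02e-06), but Met passed the filter only through the mutant arrays and wild-type lay below it, so the size is uncertain. The innate immune receptor Tlr4 (-0.92) and the hyaluronan receptor Cd44 (-0.87) fell. Of 10 tested proteases and protease enhancers that act on proteoglycans or collagen, 6 fell, 1 rose and 3 did not pass (median -0.43). Mmp3 (-1.12), Adamts5 (-0.91) and Adamts1 (-0.82) fell, and Mmp9 rose (0.60). Leaving out either mutant array gave 4 lower genes in the TGF-beta list and 4 in the receptor list, and leaving out mutant replicate 1 gave 3 in the protease list. Without wild-type replicate 2 the higher genes numbered 2 in the TGF-beta list and 3 in the receptor list. With the filter at the 60th percentile of signal, the TGF-beta, receptor and protease lists each had 0 higher genes, since Bmp4, Met and Mmp9 were no longer tested. With no filter the protease list had 2, the other being the collagenase Mmp13, at 6.07 and 6.11 in the mutant, against 5.23 and 5.07 in wild-type.

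**Figure D5:**
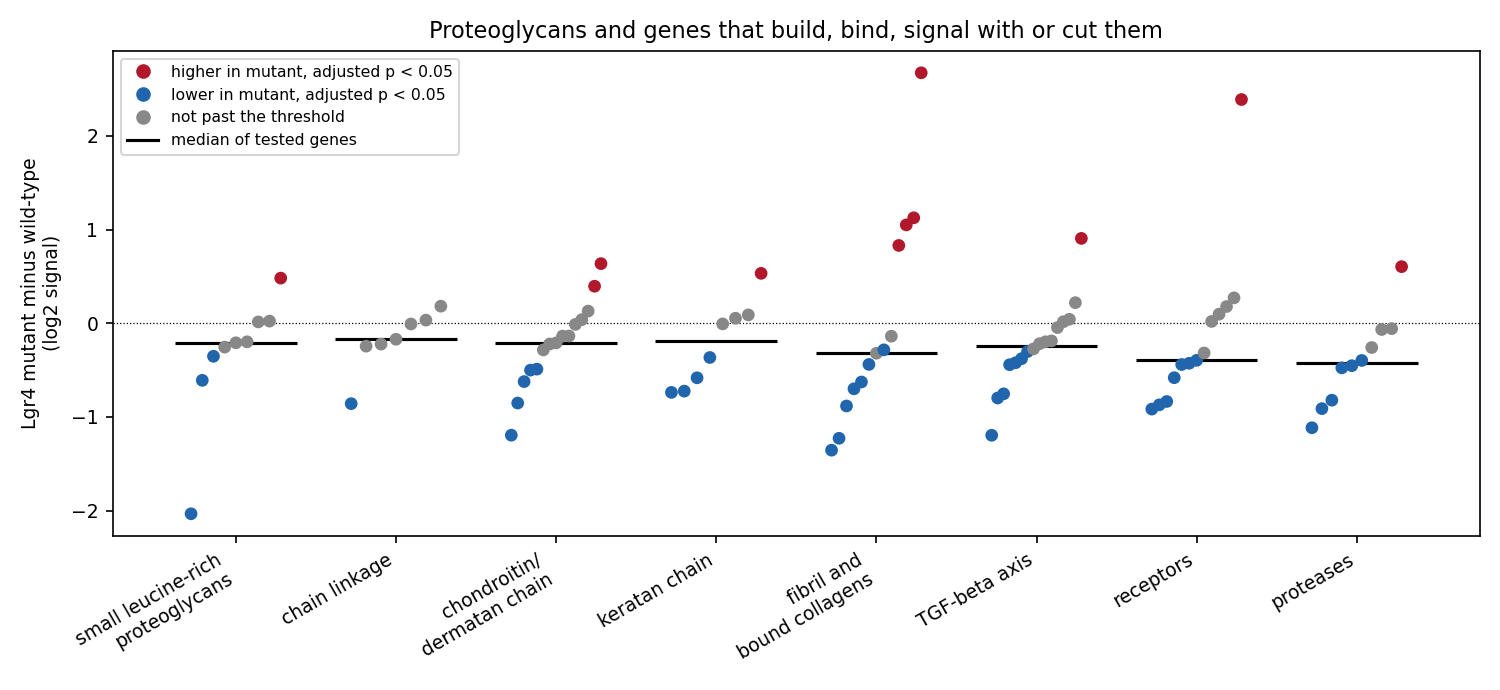
Differences (Lgr4 mutant minus wild-type, log2 signal) of the 9 tested proteoglycan genes and of 7 lists of genes that build their chains, bind them, signal with them or cut them; each point is a gene, blue and red mark lower and higher genes past an adjusted p of 0.05, grey marks the rest, and the black line is the median of tested genes. All 8 medians lie below 0, and the collagen column reaches from -1.36 to 2.67.

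Markers of other cells moved in the same cultures. The counts here and in the next paragraph are to be read against 11.1% higher and 18.7% lower over all tested genes. Among fibroblast and progenitor markers, 5 of 10 tested were lower and 1 was higher (median -0.35), with mean log2 signal over the list of 9.71 and 9.76 in the mutant, against 10.05 and 10.12 in wild-type. Those that were lower were Thy1 (-2.17), Mfap5 (-1.32), Fap (-0.59), Pdgfra (-0.56) and S100a4 (-0.42), and Dpt was higher (1.36). Mural markers were lower in 6 of 10 and higher in 2 (Cspg4 and Abcc9), with a median of -0.55 and list means of 9.47 and 9.53 in the mutant, against 9.87 and 9.88 in wild-type. Rgs5 read 5.70 and 5.62 in the mutant, below the filter, against 7.82 and 7.68 in wild-type. Macrophage markers were lower in 6 of 12 and higher in none (median -0.32), with list means of 12.35 on both mutant arrays, against 12.70 and 12.75 in wild-type.

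Brown adipocyte markers were higher in 4 of 6 tested (Ucp1, Elovl3, Cox8b and Cox7a1; median 1.92), with list means over 8 genes of 8.08 and 7.90 in the mutant, against 6.09 and 6.37 in wild-type. Prdm16 (0.19) and Dio2 (0.17) did not pass the limma test. Ucp1 and Elovl3 passed the filter only through the mutant arrays, and their wild-type means of 5.43 for Ucp1 and 6.07 for Elovl3 lay below it. Endothelial markers were higher in 1 (Cdh5) and lower in 1 (Vwf, below the filter in the mutant mean) of 8 tested. Their list means over all 9 genes, Tie1 below the filter included, were 7.29 and 7.12 in the mutant, against 7.06 and 7.09 in wild-type. Mesothelial markers (5 tested) and lymphocyte markers (3 tested) had none past the limma test, with Krt8 (0.33) and Cd3e (0.30) under an unadjusted p of 0.05. Tendon and cartilage cells, which are rich in these proteoglycans, were checked by 9 markers, of which Scx, Tnmd, Mkx, Acan and Matn3 lay below the filter. Of the 4 tested, Cnmd was higher (0.64). Tnmd, below the filter, read 4.95 and 4.87 in the mutant, against 5.33 and 5.36 in wild-type. In the limma fit of all genes its difference was -0.44 (adjusted p = 0.0135). The list means over all 9 genes were 5.51 and 5.61 in the mutant, against 5.55 and 5.54 in wild-type.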

How the data were processed

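RNA of 4 cultures, 500 ng each, was read on a 3' expression array. The authors deposited log2 values for 45101 probe sets (64 of them controls), made with Partek 6.6 and RMA per the submitters' processing notes; the scale follows from the value range, and the RMA variant is not given in the sources used here. Signals of different probe sets are not comparable as levels, so genes are compared by differences only. Each gene was read from its brightest single-gene probe set and tested if its mean passed the 40th percentile (6.13), which left 13173 genes. limma 3.58.1 (R 4.3.3; lmFit, eBayes) gave 2-sided tests of Lgr4 mutant against wild-type, adjusted over all of them by Benjamini-Hochberg, with 2 residual and 6.21 prior degrees of freedom. Genes below the filter have values from the fit of all 18193 genes, and single probe sets from a fit of all probe sets. The code of the fit was checked on simulated data drawn from its own variance model, with far fewer changed genes than were called here. That check does not tell how often small differences would be missed in these cultures. Precision is limited by having 2 arrays a group, and an exact permutation test of 2 against 2 cannot go below p = 0.333. Replicates are labelled biological without saying whether mice or cultures differed, so the p-values may cover technical spread alone.

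The members and lists were chosen with earlier results of these data known. Named were all members, further family members, the 3 called genes with the largest absolute difference in each related list, Lgr4 and the 5 profiles nearest Aspn. From cell type lists the rule took counts, medians, means and the 2 brightest genes, the last left out here because levels are not comparable; the genes named were chosen after their values were seen. Alternatives were another filter, averaged probe sets, rescaling, other variance models, a replicate block and leaving out each array.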

Additional observations from a re-analysis of the deposited data

How the results depend on the processing

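Of 129 recomputed differences of the 10 genes, 119 kept their direction and side of the threshold, 4 lost a call, 2 gained one and 4 changed sign. Another filter, another variance model, the replicate block and the test of every probe set leave the difference itself as it was. Averaging probe sets likewise left genes with 1 probe set unchanged. In those settings the sign could not change, so the tally is not one of independent checks. Aspn (-2.10 to -1.97) and Lum (-0.71 to -0.51) passed in all 13 of theirs. The sign changes were of differences near 0 that passed in no setting, Dcn after a second quantile normalization (-0.0056) and centring on the median (-0.019), and Ogn after centring (-0.011) and without wild-type replicate 2 (-0.15; Ogn ranged from -0.15 to 0.19 over the arrays left out). Without mutant replicate 2, no member was called higher; leaving out arrays gave 0 to 1. Genes called over the whole table ranged from 1851 to 6349 when an array was left out, against 3924, with fewer arrays in each fit. With probe sets averaged 2 members were called lower, and with a variance trend 4, against 3 in the main fit. The median of all tested genes was -0.03, and -0.003 and -0.07 after the 2 rescalings. The labels' replicate numbers do not state shared animals or batches. The difference between replicates 1 and 2 in the mutant correlated with that in wild-type at 0.159 over the 13173 tested genes, which are not independent. With the replicate number as a block 1 member was called higher and 3 lower, as without it, and 4879 genes were called in all. That fit has fewer residual degrees of freedom than the main fit, so its p-values lean more on a variance shared over genes. Omd and Kera lie near or below the signal filter, and Dcn and Bgn near the top of the signal range.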
